A study of Mus musculus with 17 samples.

Results

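Voltage-gated sodium channel genes were followed through the cortex of Hnrnph2 mutant mice. The genes were chosen by name as alpha and beta subunits linked to epilepsy (Scn1a, Scn2a, Scn3a, Scn8a, Scn2b, Scn3b and Scn4b), and they account for 7 of the 55573 entries in the expression table. All 7 passed the filter on low expression. Expression is given in TPM (transcripts per 1000000 transcripts), a unit corrected for the length of the transcript and set relative to the whole library.

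A voltage-gated sodium channel is built around one large alpha subunit, which forms the pore and carries the inward current that starts and propagates the action potential. Smaller beta subunits with one membrane span modify how the channel opens and closes and help to place it in the membrane, above all at the axon initial segment and the nodes of Ranvier. Cortical neurons exchange alpha subunits during development, and variants in several of these genes cause epilepsy or developmental encephalopathy in humans.

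The study compared bulk cortex from 17 male C57BL/6J mice in 6 groups. Hemizygous Hnrnph2 KO mice (n = 3), hemizygous Hnrnph2 R206W mice (n = 3) and wild-type controls from each of these lines (n = 3 and n = 3) were 8 weeks old. Hemizygous Hnrnph2 P209L mice (n = 3) and wild-type controls from that line (n = 2) were 3 weeks old. Hnrnph2 lies on the X chromosome and encodes an RNA-binding protein, R206W and P209L are amino acid substitutions in its nuclear localization signal, and the KO line carries a frameshift. Controls were littermates, and each mouse gave one library. Age and the P209L line are the same split of the mice, so that the line and the age cannot be told apart in any comparison of 3 with 8 weeks. In bulk tissue, fewer cells of a type and less RNA per cell cannot be told apart either.

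Hnrnph2 itself was at 23.1 ± 1.59 TPM (SD, n = 3) in KO cortex and at 122 ± 35.7 TPM (SD, n = 3) in its controls, which is lower by limma (log2 change -2.30, adjusted p = 8.64e-06). All 6 markers of cortical excitatory neurons were detected in every mouse, with Slc17a7, the vesicular glutamate transporter of these cells, between 495 and 912 TPM. KO Control 1 stood apart from the other libraries. Mitochondrial transcripts took 20.1% of its TPM, against 10.7% to 15.4% elsewhere, and its size factor (median ratio to the other libraries) was 0.792, against 0.862 to 1.13. It had the lowest TPM of the 6 controls at 8 weeks for every one of the 7 channel genes, so the results that include it are also given without it. After division by the size factors it remained the lowest for 5 of the 7, and Scn3a and Scn3b fell within the range of the other controls.

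The 7 genes lie on 3 chromosomes (GENCODE M21, GRCm38). Scn3a (ENSMUSG00000057182.14, chr2:65457118-65567627, minus strand), Scn2a (ENSMUSG00000075318.12, chr2:65620771-65767447, plus strand) and Scn1a (ENSMUSG00000064329.13, chr2:66270778-66440840, minus strand) form a cluster, with 53143 bases between Scn3a and Scn2a and 503330 between Scn2a and Scn1a. Scn8a (ENSMUSG00000023033.14, chr15:100869858-101045938, plus strand) stands alone. On chromosome 9, Scn2b (ENSMUSG00000070304.12, chr9:45117782-45130070, plus strand) and Scn4b (ENSMUSG00000046480.6, chr9:45138395-45154152, plus strand) are separated by 8324 bases, and Scn3b (ENSMUSG00000049281.16, chr9:40269217-40291618, plus strand) lies further upstream. Annotated noncoding genes overlap Scn1a, Scn3a, Scn2b and Scn3b on the opposite strand, and their mean levels ranged from 0.004 to 0.911 TPM. The library kit was stranded, but the strand setting used in quantification was not given in the sources used here.

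Because Scn1a, Scn2a, Scn8a and Scn2b were all lower at 3 weeks, the DNA before their annotated starts is shown. RefSeq (GRCm38.p6) held a start for 5 of the 7 genes, with more than one for Scn2a and Scn8a. Scn3a and Scn3b had no entry in the table. The 250 bases before each start were searched on both strands for 6 short strings. The TATA box was searched as TATAAA, which 12.4% of 32851 promoters of the same length hold, and the CCAAT box by its own letters, which 33.8% hold. The GC box was searched as GGGCGG (found in 32.7% of promoters), the cAMP response element as TGACGTCA (1.55%), the E-box as CACGTG (found in 6.02% of promoters) and the left part of the RE1 silencer element as TTCAGCACC (0.301%). No promoter of these genes held more than one kind of match, and a match is only a description of the letters. Capitals mark matches, and bases within annotated exons are left out of the sequences.
Scn1a, chr2:66440841-66441087, minus strand: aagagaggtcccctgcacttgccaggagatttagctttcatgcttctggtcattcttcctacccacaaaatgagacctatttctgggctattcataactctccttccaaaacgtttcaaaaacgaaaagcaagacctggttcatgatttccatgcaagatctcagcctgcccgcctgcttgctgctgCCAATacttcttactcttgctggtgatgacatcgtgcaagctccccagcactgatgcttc
Scn2a, internal start, chr2:65668436-65668685, plus strand: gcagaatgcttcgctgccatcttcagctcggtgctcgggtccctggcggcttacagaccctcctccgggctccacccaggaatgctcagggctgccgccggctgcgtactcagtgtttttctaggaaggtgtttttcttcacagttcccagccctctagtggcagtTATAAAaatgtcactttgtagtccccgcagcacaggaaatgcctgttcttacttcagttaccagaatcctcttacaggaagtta
Scn8a, upstream start, chr15:100870395-100870644, plus strand: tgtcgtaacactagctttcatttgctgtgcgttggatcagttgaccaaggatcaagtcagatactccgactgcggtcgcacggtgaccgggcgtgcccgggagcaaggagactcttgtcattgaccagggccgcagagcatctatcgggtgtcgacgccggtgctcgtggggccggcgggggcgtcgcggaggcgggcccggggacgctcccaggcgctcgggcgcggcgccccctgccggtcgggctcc
Scn2b, chr9:45117626-45117781, plus strand: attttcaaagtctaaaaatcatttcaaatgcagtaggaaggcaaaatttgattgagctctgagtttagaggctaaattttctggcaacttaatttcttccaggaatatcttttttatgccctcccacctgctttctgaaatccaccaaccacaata

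The sequences had little in common. The Scn1a sequence held a CCAAT box and the internal Scn2a start a TATA box, whereas the Scn8a and Scn2b windows held none of the 6 strings. GC content was 46.8% for Scn1a, 53.2% for the internal Scn2a start and 68.0% for the upstream Scn8a start, against a median of 52.4% over all promoters. Scn2b, with 38.4% GC and 1 CpG, and its neighbour Scn4b, with 66.0% GC and 23 CpG in a window that mostly lies in an annotated exon and is not shown, differed widely in base composition. The median promoter had 6 CpG. The upstream Scn2a start had 29.6% GC, which only 1.3% of promoters fell below, and none of the 6 strings.

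The 7 genes covered a wide range of expression. Averaged over the 17 mice, Scn2b was at 96.3 TPM, Scn2a at 95.2, Scn8a at 81.1, Scn1a at 52.2, Scn3b at 48.8, Scn4b at 28.0 and Scn3a at 12.3 TPM. Scn2b, which encodes a beta subunit linked to the alpha subunit by a disulfide bond, and Scn2a, which encodes the Nav1.2 pore, lay above 90.2% and 90.1% of the genes tested. Scn3a, the Nav1.3 pore best known from the developing brain, lay above 44.5%. Not all neighbours in this order differed beyond the spread between mice. Scn2b exceeded Scn2a in only 6 of 17 mice, and Scn2a exceeded Scn8a in 15 of 17. Scn8a exceeded Scn1a, and Scn3b exceeded Scn4b, in 17 of 17 mice.

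The order of some pairs within a mouse also differed between the mice of the 2 ages. Scn1a exceeded Scn3b in 11 of 12 mice at 8 weeks and in 1 of 5 at 3 weeks. Scn4b exceeded Scn3a in 12 of 12 mice at 8 weeks and in 2 of 5 at 3 weeks. Those 2 were the P209L controls, so the wild-type mice kept this order at both ages and only the P209L mice reversed it. The unit is per length, so these comparisons between genes are on a common scale.

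**Figure D1:**
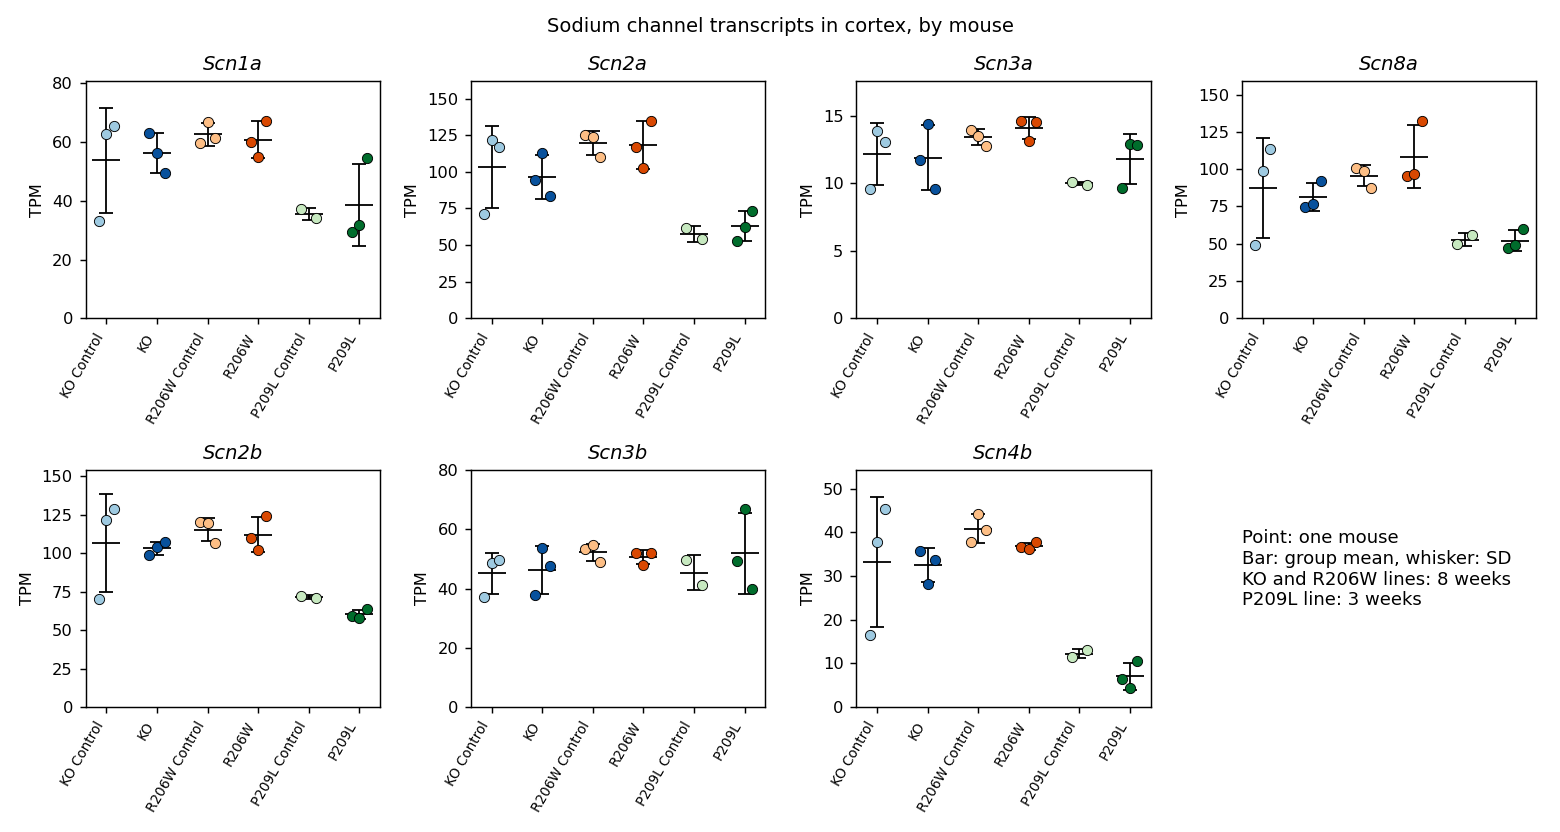
TPM (linear axis from 0) of each of the 7 sodium channel genes, by group, with a point for each mouse, a horizontal bar for the group mean and whiskers for the SD. Scn4b was between 4.27 and 12.97 TPM in the 5 mice at 3 weeks and between 16.6 and 45.3 TPM in the 12 mice at 8 weeks, and the lowest of the latter was KO Control 1.

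To describe how channel expression differed between the ages, the wild-type mice of the P209L line at 3 weeks were set against both groups of 8-week controls. Of the 7 genes, 5 (Scn1a, Scn2a, Scn8a, Scn2b and Scn4b) were lower at 3 weeks at an adjusted p under 0.05 in limma, and the median log2 difference over the 7 genes was -0.66. Many genes differed at these ages: 36.1% of the 16265 genes tested passed the same threshold, 24.8% in the lower direction, and the median over all genes was -0.12. Neither Scn3a nor Scn3b passed.

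Scn4b, a beta subunit associated with resurgent sodium current, differed most. It was at 11.44 and 12.97 TPM in the 3-week controls, and at 16.6, 37.9 and 45.3 TPM in the KO controls and 37.9, 44.3 and 40.5 TPM in the R206W controls at 8 weeks. Both young mice were below all 6 older ones, including KO Control 1. Mean Scn4b at 3 weeks was 32.9% of that at 8 weeks, with a log2 difference of -1.46 (SE 0.291, adjusted p = 0.00154).

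Scn2a followed. Its TPM was 61.6 and 53.9 at 3 weeks, and 71.4, 122 and 117 (KO controls) and 125, 124 and 110 (R206W controls) at 8 weeks. The ages again did not overlap. The log2 difference was -0.92 (SE 0.186, adjusted p = 0.00171), and the mean at 3 weeks was 51.8% of that at 8 weeks. Of all genes tested, 21.5% were lower at 3 weeks without overlap, and among the 7 channel genes only Scn2a and Scn4b were.

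Scn8a encodes Nav1.6, the main pore of mature axon initial segments and nodes of Ranvier. It was at 49.5 and 56.1 TPM at 3 weeks and at 98.8, 114, 101, 98.8 and 87.6 TPM in 5 of the older controls, but at 49.4 TPM in KO Control 1. The log2 difference was -0.74 (SE 0.230, adjusted p = 0.0208). Scn1a encodes Nav1.1, which is prominent in fast-spiking interneurons and is the gene mutated in Dravet syndrome. It was at 37.1 and 34.2 TPM at 3 weeks, against 62.6, 65.5, 59.6, 66.9 and 61.4 TPM at 8 weeks and 33.3 TPM in KO Control 1, with a log2 difference of -0.66 (SE 0.235, adjusted p = 0.0386). Scn2b was at 72.3 and 70.9 TPM at 3 weeks, against 106 to 129 TPM in 5 of the older controls and 70.0 TPM in KO Control 1, and its log2 difference was -0.60 (SE 0.169, adjusted p = 0.0123). For these 3 genes the young mice overlapped the older ones through KO Control 1 alone.

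The other 2 genes stayed closer to the older level. Scn3a was at 10.1 and 9.89 TPM at 3 weeks, and the 8-week controls had a lowest value of 9.54 and a highest of 14.0 TPM. Its log2 difference was -0.32 (95% interval -0.64 to 0.0062, adjusted p = 0.115). Scn3b, a beta subunit bound to the channel without a disulfide bond, was at 49.7 and 41.1 TPM at 3 weeks and between 37.2 and 54.6 TPM at 8 weeks. Its log2 difference of -0.095 had a 95% interval of -0.46 to 0.27 and an adjusted p = 0.692, and it became 0.044 after median-of-ratios scaling.

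Leaving out KO Control 1 enlarged the differences. In all, 6 of the 7 genes then passed, with Scn3a added at a log2 difference of -0.39 (adjusted p = 0.0233), while Scn1a reached -0.81, Scn2a -1.04, Scn8a -0.92, Scn2b -0.74 and Scn4b -1.68. Of all 16265 genes, 8181 passed in that fit, against 5876 with KO Control 1 kept, and the median over all genes became -0.18. Median-of-ratios scaling, which removes most of the shift common to all genes, left 5 passing, with Scn1a at -0.52, Scn2a at -0.78, Scn8a at -0.60, Scn2b at -0.46 and Scn4b at -1.33. With that scaling 7180 of all genes passed. The comparison has only 2 young controls, and leaving out a mutant mouse cannot change its estimates. Without P209L Control 1, or without P209L Control 2, Scn2a and Scn4b alone passed, and both also passed in each of the 26 alternatives tried. An exact permutation test of TPM, two-sided, gave p = 0.0714 for Scn2a and Scn4b, which is as low as 2 against 6 mice can go, and 0.214 for Scn1a, Scn3a, Scn8a and Scn2b.

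The mutant mice gave a second set of animals at the same ages, none of them shared with the controls. P209L mice at 3 weeks were set against the mean of the KO and R206W groups at 8 weeks, so that age, line and allele are the same split. The same 5 genes passed and were lower at 3 weeks, against a background of 45.9% of all genes past the threshold and 32.1% in the lower direction. The median log2 difference over the 7 genes was -0.76, and over all genes -0.16.

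Scn4b was at 6.33, 4.27 and 10.5 TPM in P209L mice, at 35.7, 28.2 and 33.6 TPM in KO mice and at 36.6, 36.2 and 37.8 TPM in R206W mice. The 3 young mutants lay below all 6 older ones. The log2 difference was -2.22 (SE 0.252, adjusted p = 1.78e-05), and the mean at 3 weeks was 20.2% of that at 8 weeks.

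Scn2b was at 59.4, 58.0 and 63.7 TPM at 3 weeks, at 98.9, 104 and 107 TPM in KO mice and at 110, 102 and 124 TPM in R206W mice, a log2 difference of -0.82 (SE 0.146, adjusted p = 0.000457). Scn8a was at 47.0, 49.3 and 59.9 TPM, against 74.8, 76.4 and 91.8 TPM in KO mice and 95.4, 96.7 and 133 TPM in R206W mice, with a log2 difference of -0.83 (SE 0.199, adjusted p = 0.00348). Both genes separated the ages completely, as did Scn2a. Scn2a was at 53.0, 62.6 and 73.2 TPM at 3 weeks and between 83.2 and 135 TPM at 8 weeks, a log2 difference of -0.76 (SE 0.161, adjusted p = 0.00157). In all, 4 of the 7 genes were lower without overlap, as were 28.6% of all genes tested.

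Scn1a differed less evenly. It was at 29.2 and 31.8 TPM in P209L 1 and P209L 2 but at 54.7 TPM in P209L 3, within the 8-week range of 49.6 to 67.3 TPM, and its log2 difference was -0.64 (SE 0.203, adjusted p = 0.0184). Its call was lost without P209L 1 (adjusted p = 0.118) or without P209L 2 (adjusted p = 0.0962). Scn3a was at 9.67, 12.9 and 12.8 TPM at 3 weeks and between 9.56 and 14.6 TPM at 8 weeks, a log2 difference of -0.13 (95% interval -0.41 to 0.15). Scn3b was at 49.3, 66.8 and 39.8 TPM at 3 weeks, where P209L 2 had the highest value of all 17 mice, and between 37.8 and 53.6 TPM at 8 weeks. Its log2 difference was 0.075 (95% interval -0.24 to 0.39). After median-of-ratios scaling the 5 genes still passed, with Scn4b at -2.05 and Scn1a at -0.46, while Scn3a turned to 0.044. Of all genes tested, 8356 passed with that scaling.

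**Figure D2:**
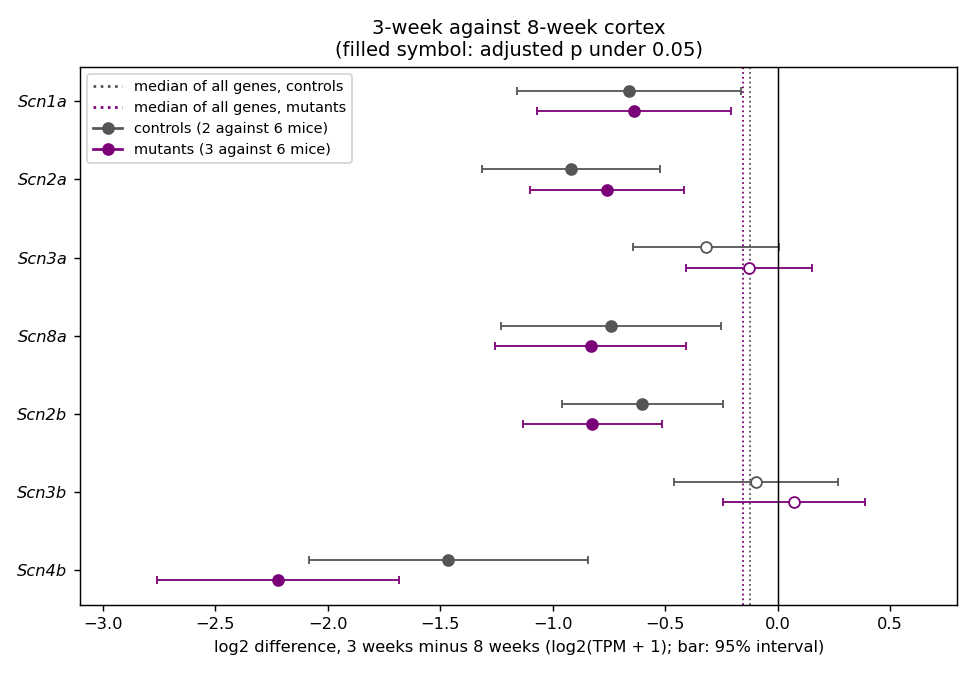
Difference between 3 and 8 weeks in log2(TPM + 1) for the 7 genes, with 95% intervals, in controls (2 against 6 mice) and mutants (3 against 6 mice). Filled symbols passed an adjusted p of 0.05, dotted lines give the median of all genes, and Scn4b lay farthest from these lines in both sets while the intervals of Scn3a and Scn3b included them.

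General neuronal transcripts moved with the ages as well. The summed TPM of 6 pan-neuronal markers was 3107 to 3408 in the 3-week controls and 5322 to 5846 in 5 of the 8-week controls, with 3328 in KO Control 1. Of these markers 3 passed lower and 1 higher in the controls, and 5 lower and 1 higher in the mutants, with median log2 differences of -0.49 and -0.69. The sum of 7 interneuron markers ranged from 719 to 757 TPM in the 3-week controls and from 786 to 899.5 TPM in 5 of the 8-week controls, with 545.5 TPM in KO Control 1. For both lists the young controls lay below the older ones apart from KO Control 1. Of the interneuron markers 1 passed lower in the controls, and 3 lower and 1 higher in the mutants. Of 6 excitatory neuron markers 3 passed lower in the controls and 2 in the mutants. The sum of 10 oligodendrocyte markers was 4128 to 6145 TPM in the 3-week controls and 2676 to 3647 TPM in the 8-week controls. In this set 6 of the 10 passed higher and 0 lower. The mutants did not share this direction, with 0 of the 10 past the threshold higher and 3 lower. Their sum was 2488 to 3568 TPM in P209L mice, 3134 to 3998 TPM in KO mice and 2840 to 3583 TPM in R206W mice. Striatal neurons express Scn4b strongly, and the sum of 8 striatal markers was 125 to 143 TPM in the 3-week controls and 146 to 175 TPM in 5 of the 8-week controls, with 105 TPM in KO Control 1. It was 107 to 126 TPM in P209L mice and 147.5 to 168 TPM in 5 of the 8-week mutants, with 118 TPM in KO 1. The striatal sum thus did not separate the ages in either set, because of KO Control 1 in the controls and KO 1 in the mutants. Scn4b separated the ages in both sets, and it was at 35.7 TPM in KO 1. Of the 7 striatal markers tested, 1 passed higher and 1 lower in the controls and 1 higher and 2 lower in the mutants. None of the 8 was at 0 in any mouse, and the dopamine receptor gene Drd2 was between 0.30 and 1.37 TPM. The part of these markers in the differences of the channel genes was not tested.

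Shares of the subunits within a mouse do not depend on how its library was scaled, so they were compared next. Each alpha gene was divided by the sum of the 4 alpha genes and each beta gene by the sum of the 3 beta genes examined here. Scn3a took 6.36% and 6.42% of the alpha sum in the 3-week controls and 4.21% to 5.83% in the 8-week controls. In P209L mice it took 6.96%, 8.24% and 6.38%, and in the 8-week mutants 4.08% to 5.53%. No mouse of one age fell within the range of the other. By a two-sided exact permutation test p = 0.0714 in controls and 0.0238 in mutants, and neither design can give less. In all, 14 such age tests of shares were made, and these p-values are not adjusted for their number.

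The beta subunits showed the wider shift in composition. Scn3b took 37.2% and 32.9% of the beta sum in the 3-week controls and 42.8%, 51.8% and 34.9% in P209L mice, against 22.1% to 30.1% in the 8-week controls and 21.9% to 28.9% in the 8-week mutants. Scn4b took 8.58% and 10.4% in the 3-week controls and 5.50%, 3.31% and 9.19% in P209L mice, against 13.4% to 20.7% and 15.2% to 20.7% at 8 weeks. Both genes separated the ages in each set of mice, with exact permutation p = 0.0714 (controls) and 0.0238 (mutants), again the lowest these designs can reach. Scn2b had the largest beta share in all mice but P209L 2 and averaged 55.4% at 3 weeks and 56.4% at 8 weeks in controls, a difference of -0.975 percentage points (exact permutation p = 0.429).

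The shares of the major alpha subunits overlapped between the ages in both sets of mice. In controls the Scn2a difference (-3.99 percentage points) was larger in size than that of Scn3a (1.64). In controls Scn2a averaged 37.0% at 3 weeks and 41.0% at 8 weeks, Scn1a 22.8% and 21.2%, and Scn8a 33.8% and 33.1%, with exact permutation p = 0.143, 0.143 and 0.786. The Scn8a difference was 0.73 percentage points in controls and -2.71 in mutants (p = 0.333 by the exact test). Only Scn3a, Scn3b and Scn4b had shares without overlap between the ages in both sets, and with 2 young controls no share could pass a threshold of 0.05 in the control mice.

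**Figure D3:**
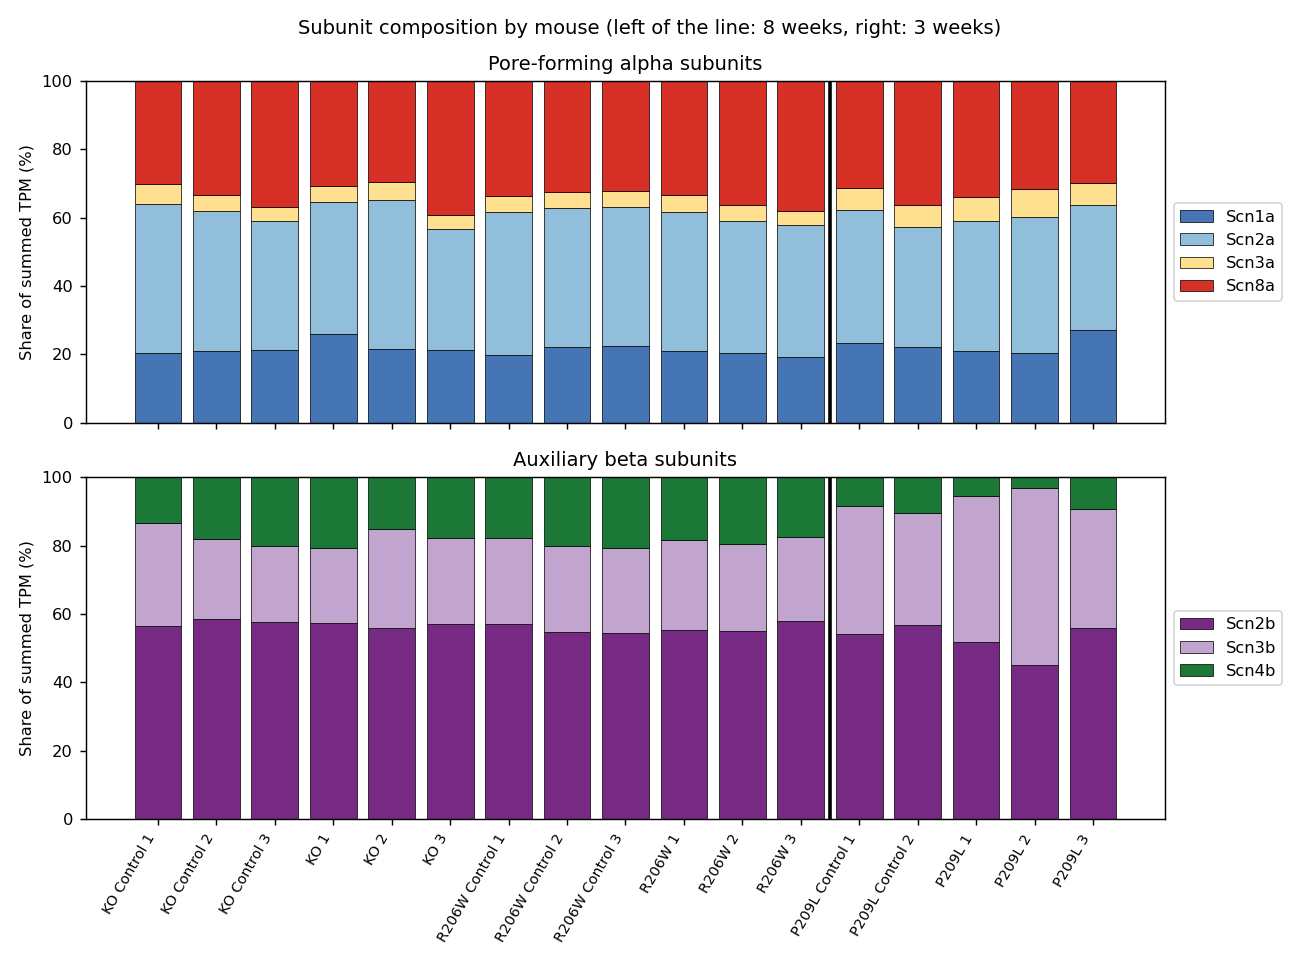
Share of each gene in the summed TPM of the 4 alpha genes (top) and the 3 beta genes (bottom), as stacked bars that add up to 100%, with a bar for each mouse. To the right of the line, in the 5 mice at 3 weeks, Scn4b took 3.31% to 10.4% of the beta sum and Scn3b 32.9% to 51.8%.

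Other genes of the same channel system were taken from lists written out by name. Scn4a, Scn9a, Scn10a and Scn11a, sodium channel genes known from muscle and peripheral nerve, stayed below a mean of 1 TPM and were not tested. Scn7a, the sodium-sensing channel, averaged only 0.895 TPM at 3 weeks and 1.79 TPM at 8 weeks in controls and was lower at 3 weeks in both sets, with log2 differences of -0.56 in controls (adjusted p = 0.00568) and -0.47 in mutants (adjusted p = 0.00483). Nalcn, the sodium leak channel, passed in the mutants alone, with log2 differences of -0.39 in both sets (adjusted p = 0.0819 and 0.0410).

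The channel partners are 13 genes for the scaffold of the axon initial segment, adhesion molecules, intracellular fibroblast growth factors that bind the alpha subunit, and ubiquitin ligases that remove channels from the membrane. In the controls 7 of the 13 passed, all lower at 3 weeks, with a median log2 difference of -0.47 over the list. Of all genes tested, 36.1% passed in this comparison, 24.8% in the lower direction, with a median of -0.12. Ank3 encodes ankyrin-G, the scaffold that anchors sodium channels at the initial segment, and it averaged 93.9 TPM at 3 weeks and 186 TPM at 8 weeks (log2 difference -0.94, adjusted p = 0.00207). The ligases Nedd4 and Nedd4l were at -0.80 each, and the adhesion molecule Cntn1 at -0.79. Among the fibroblast growth factor homologues, Fgf12 was at -0.76, Fgf14 at -0.72 and Fgf13 at -0.47, whereas Fgf11 was at -0.026 and did not pass. Not every scaffold gene followed Ank3. Sptbn4, the beta-IV spectrin of the initial segment, had a log2 difference of 0.23 (adjusted p = 0.397), Sptan1 0.27 (adjusted p = 0.324) and the microtubule organizer Trim46 0.20 (adjusted p = 0.413).

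In the mutants 45.9% of all genes tested passed, 32.1% in the lower direction. Of the 13 partners, 7 passed there, all lower at 3 weeks, with Ank3 at a log2 difference of -1.09 (adjusted p = 0.000181). Of these, 6 also passed in the controls (Ank3, Cntn1, Fgf13, Fgf14, Nedd4 and Nedd4l). Nfasc, which encodes neurofascin, passed in the mutants only (-0.52, adjusted p = 0.0446), and Fgf12 did not pass there (-0.34, adjusted p = 0.0610). Whether the age difference of Nalcn, Nfasc or Fgf12 itself differed between controls and mutants was not tested.

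**Figure D4:**
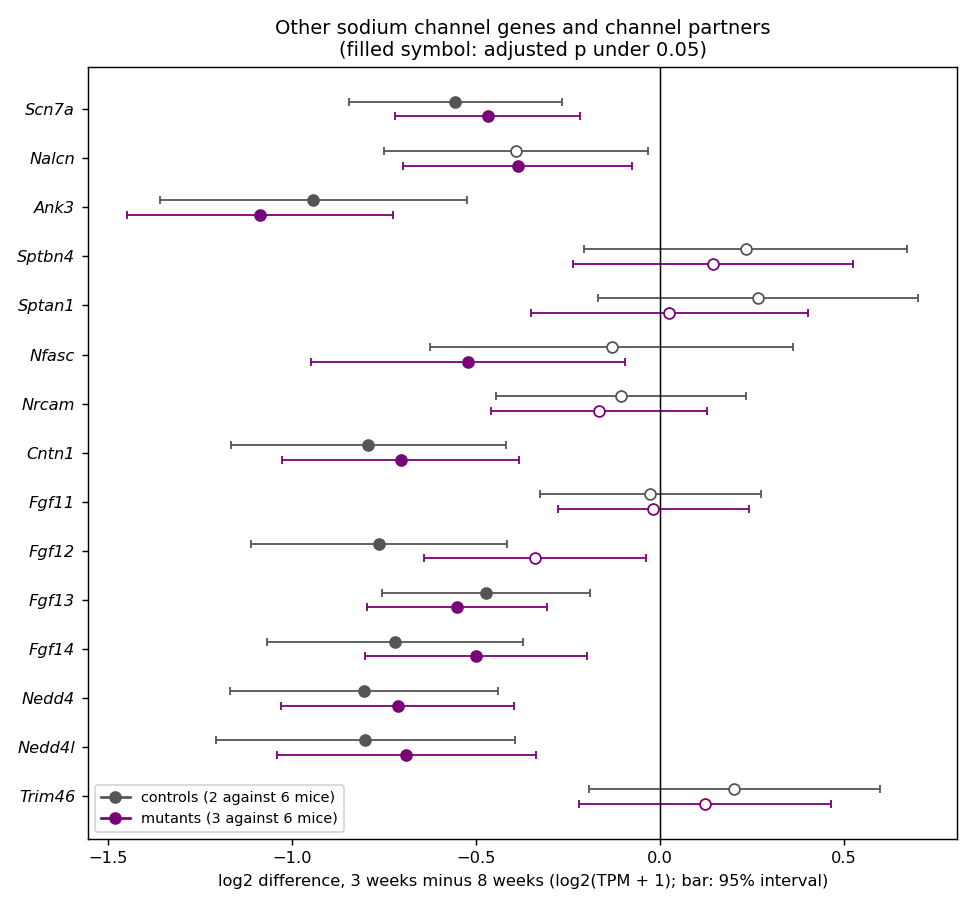
Difference between 3 and 8 weeks in log2(TPM + 1), with 95% intervals, for Scn7a, Nalcn and the 13 channel partners, in controls and mutants. Filled symbols passed an adjusted p of 0.05, and Ank3 had the largest difference of the genes shown in both sets (-0.94 and -1.09).

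Each mutant group was then compared with its own controls, to ask whether loss of Hnrnph2 or a substitution in its product alters sodium channel expression. None of the 7 genes passed in any line at an adjusted p under 0.05 in limma. Few genes passed at all: 0.00615% of those tested in KO, 0.0369% in R206W and 0.0984% in P209L cortex. At an unadjusted p under 0.05, 0 of the 7 fell below in KO, 0 in R206W and 1 (Scn4b) in P209L, against 4.08%, 2.19% and 7.46% of all genes (2.9% lower in P209L).

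Scn4b was the channel gene with the largest change. In P209L cortex it was at 6.33, 4.27 and 10.5 TPM, against 11.44 and 12.97 TPM in its controls. All 3 mutants were below both controls, and their mean was 57.5% of the control mean. The log2 change was -0.79 (SE 0.326, 95% interval -1.48 to -0.098), with an unadjusted p = 0.0279 and an adjusted p = 0.589 in limma. An exact permutation test gave p = 0.2, below which 3 against 2 mice cannot go. It was -0.52 without P209L 2 and -1.08 without P209L 3. With libraries weighted by quality it passed, at -1.08 (adjusted p = 0.0200), and the adjusted p ranged from 0.0200 to 1 over the alternatives.

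Other transcripts differed between these P209L groups as well. The sum of 10 oligodendrocyte markers was 2488 to 3568 TPM in P209L mice and 4128 to 6145 TPM in their controls, with a median log2 change of -0.84, and 0 of the 10 passed. The sum of 7 striated muscle markers was 46.9 to 58.6 TPM against 113 to 119 TPM, and 2 of the 5 tested passed lower. Actc1, a muscle actin gene, was at 0 in 15 of 17 mice. The striatal sum was 107 to 126 TPM against 125 to 143 TPM. The part of these transcripts in the Scn4b difference was not tested.

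The other 6 genes changed less in P209L cortex. Scn2b was at 59.4, 58.0 and 63.7 TPM, against 72.3 and 70.9 TPM in the controls, again without overlap. Its log2 change was -0.24 (SE 0.188, adjusted p = 0.868), and of all genes 10.7% were lower in P209L without overlap. The remaining changes were 0.21 for Scn3a, 0.16 for Scn3b, 0.11 for Scn2a, 0.057 for Scn1a and -0.025 for Scn8a on the log2 scale, and all their 95% intervals included 0. The Scn1a value rested on P209L 3, at 54.7 TPM, and turned to -0.22 without that mouse.

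In R206W cortex the log2 changes of the 7 genes ranged from -0.14 for Scn4b to 0.16 for Scn8a. Scn4b was at 36.6, 36.2 and 37.8 TPM, against 37.9, 44.3 and 40.5 TPM in controls. The highest mutant (37.76 TPM) lay just under the lowest control (37.88 TPM), and 8.11% of all genes were lower in R206W without overlap. For Scn4b, the 95% interval of the change was -0.76 to 0.48. Scn8a was at 95.4, 96.7 and 133 TPM, and R206W 3 alone exceeded the control range of 87.6 to 101 TPM. Scn1a, Scn2a, Scn2b and Scn3b were between 96.8% and 98.6% of their control means, and Scn3a was at 105%.

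In KO cortex the log2 changes ranged from -0.065 for Scn2a to 0.12 for Scn1a, and 0 of the 7 genes separated the groups, against 6.25% of all genes. The median over all genes was 0.064. These values depended on KO Control 1. Without it, the changes of Scn1a (-0.19), Scn2b (-0.27), Scn3b (-0.097) and Scn4b (-0.35) were negative where they had been positive. Scn2b and Scn8a (-0.39) then had an unadjusted p = 0.00894 and 0.0208 in limma, with adjusted p = 0.410 and 0.422. In that fit the median over all genes was -0.059, 5 of all genes passed, and 0 of the 7 channel genes did. The share of all genes with a low unadjusted p in that fit is not available here. The unadjusted values of Scn2b and Scn8a therefore cannot be set against a background. Median-of-ratios scaling also turned Scn2b (-0.074) and Scn3b (-0.042), so that no direction is given for the KO line.

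**Figure D5:**
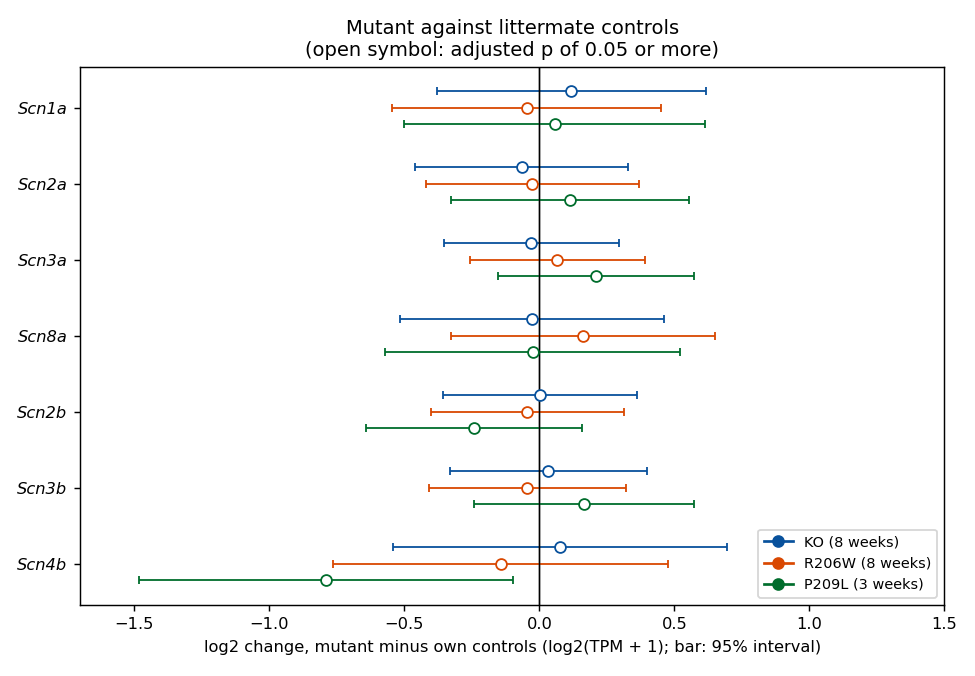
Change of each gene in mutant cortex against controls of the same line in log2(TPM + 1), with 95% intervals, for KO and R206W at 8 weeks (3 against 3 mice) and P209L at 3 weeks (3 against 2 mice). Open symbols mark an adjusted p of 0.05 or more, and Scn4b in P209L (-0.79) is the single value whose interval lies off 0.

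Differences between the lines were tested directly. The P209L and R206W changes of Scn4b differed by -0.65 on the log2 scale (SE 0.437, 95% interval -1.58 to 0.28, adjusted p = 1.00), and 0 of the 7 genes passed. None passed for the KO change minus the R206W change, and none between the R206W and KO controls, which share age and genotype. Over all genes, 0%, 0.0307% and 0% passed in these 3 contrasts. At an unadjusted p under 0.05 in those contrasts lay 3.98%, 2.29% and 3.12% of all genes. None of the 13 channel partners passed in any of the 3 lines, and subunit shares overlapped between mutants and controls for every gene in every line.

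The genes most like each channel gene were taken by Pearson's r of log2(TPM + 1) over the 17 mice, as a description. The mice share their age groups and KO Control 1, so a high r can reflect both. The closest to Scn2a was Ulk2 (r = 0.994), to Scn8a Dhx8 (0.994), to Scn2b Gpr26 (0.992), to Scn4b Adi1 (0.988) and to Scn1a Dtna (0.969). Scn3a and Scn3b had less close partners, Nxph1 (0.940) and Acvr2a (0.892). The next in rank were Wdr47 and Larp4 for Scn2a, Spock1 and Atp2b3 for Scn8a, Prkca and Atrnl1 for Scn2b, Psmc5 and Baalc for Scn4b, Chn1 and Arhgap20 for Scn1a, Spg21 for Scn3a, and Doc2b and Pgrmc1 for Scn3b.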

How the data were processed

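RNA was taken from dissected, frozen cortex treated with RNAlater-ICE, and libraries were made with a TruSeq stranded total RNA kit per the labels. The authors deposited TPM values by gene symbol for 17 mice. The submitters' processing notes name Trim Galore, STAR 2.7.1a, GATK 4.0.4.0, RSEM and build mm10. The annotation was not given in the sources used here. Columns summed to 1000000 within rounding, so the depth per sample is unknown and no counting error can be given. Since values are relative, a shift in abundant transcripts moves the others.

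Entries sharing a symbol (120) were summed, and 16265 genes whose TPM averaged 1 or more were tested. Values were analysed as log2(TPM + 1), which understates changes of low genes. limma 3.58.1 (R 4.3.3) fitted a mean for each of 6 groups with eBayes and trend=TRUE. Tests were two-sided, with Benjamini-Hochberg adjustment over all genes of a contrast and a threshold of 0.05. All groups shared one residual spread per gene. Exact permutation tests of TPM and of subunit shares were run beside it. The script was tested on simulated data. GENCODE M21 (GRCm38) and RefSeq were joined by symbol (54510 of 55453 symbols in GENCODE), and figures were drawn with matplotlib 3.10.9 in Python 3.11.15.

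The genes named were the 7 channel genes, further sodium channel genes, those of 13 channel partners past the threshold (or the 3 of smallest p), and up to 3 tested genes with the highest r to each channel gene. Some genes that this rule covers are not reported here. Members and lists were chosen with earlier results of these data known. The analysis was repeated with pseudocounts 0.1 and 0.5, unfiltered, filtered at 5 TPM, with median-of-ratios scaling, quantile normalization, a fit on the groups compared, a replicate block, sample weights from arrayWeights (which stopped before reaching its tolerance) and each mouse left out in turn. Leaving out KO Control 1 together with median-of-ratios scaling was added after the data were seen. Some additional partners that did not pass are named for comparison and were chosen after their values were seen.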

Additional observations from a re-analysis of the deposited data

Results flagged for a closer look

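Each of the 5 values that stood out belonged to one library, KO Control 1, among the 6 controls at 8 weeks. Its gap to the nearest control, divided by the range of the group, exceeded Dixon's 95% critical value of 0.625 for 6 samples. The values were 33.29 TPM for Scn1a, 71.36 TPM for Scn2a, 9.54 TPM for Scn3a, 37.18 TPM for Scn3b and 16.55 TPM for Scn4b, and each was the lowest of its group. In all 14 groups of values were tested, and chance marks about 1 in 20. The same library had 20.1% mitochondrial transcripts and a size factor of 0.792. Groups of 3 were too small for this check.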

How the results depend on the processing

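Of the 936 values of single genes recomputed under other settings, 869 kept their direction and side of the threshold and 44 changed direction. The fit had a separate mean for each group. Leaving out a mouse of a group outside a comparison therefore could not change its estimate, and many of these values kept their direction by design. In both comparisons of 3 with 8 weeks, Scn2a and Scn4b passed in 26 of 26 alternatives, Scn2b in 23 (controls) and 26 (mutants), Scn8a in 22 and 26, and Scn1a in 16 and 24. Between the ages in controls, 5465 of all genes passed with no filter, 4319 with a fit on the groups compared and 8181 without KO Control 1. The number of channel genes lower at 3 weeks in controls was 3 with no filter, 2 with a fit on the groups compared, and 2 to 6 when each mouse was left out. It was 2 without either P209L control and 6 without KO Control 1. In mutants it was 4 to 5 when each mouse was left out. Adding both the removal of KO Control 1 and median-of-ratios scaling, chosen after seeing the data, gave 5 in each. The cause was not tested for any of these changes, except that the fits without a P209L control hold 1 young control, which is assumed to vary like the other groups.

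With sample weights 1 channel gene (Scn4b, log2 change -1.08) passed in P209L, where 378 genes passed in all, and 0 in KO and R206W. The weights also turned Scn1a (-0.0066), Scn2b (-0.32), Scn3b (-0.34) and Scn4b (-0.26) in KO and Scn1a (-0.051) in P209L. Median-of-ratios scaling and quantile normalization turned Scn2b (-0.074, -0.031) and Scn3b (-0.042, -0.016) in KO, Scn3b (0.044, 0.038) between the ages in controls and Scn3a (0.044, 0.076) between the ages in mutants.

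The deviations of same-numbered mice from their group means had r from -0.113 to 0.331 over 8 pairs. In the KO line r was 0.117, -0.0581 and 0.331. Deviations within a group of 2 or 3 mice are tied to each other, so these values cannot decide whether mice were paired. The labels give no pairing. With the replicate block 4 channel genes passed between the ages in controls, where Scn1a reached an adjusted p = 0.0592, and Scn1a in P209L turned to -0.027. The block changed no other call.

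Ranges over the mice left out crossed 0 in KO for Scn1a (-0.19 to 0.29), Scn2a (-0.31 to 0.072), Scn3a (-0.18 to 0.11), Scn8a (-0.39 to 0.20), Scn2b (-0.27 to 0.16), Scn3b (-0.097 to 0.17) and Scn4b (-0.35 to 0.35). They did so in R206W for Scn1a (-0.12 to 0.024), Scn2a (-0.13 to 0.071) and Scn2b (-0.12 to 0.020), and in P209L for Scn1a (-0.22 to 0.22), Scn2a (-0.00057 to 0.23), Scn8a (-0.13 to 0.064) and Scn3b (-0.030 to 0.34). Between the ages Scn3b ranged from -0.23 to 0.038 in controls and from -0.12 to 0.25 in mutants.

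For the shares, mutant mice in place of controls gave 2.43 percentage points for Scn3a, 17.8 for Scn3b, -12.2 for Scn4b and -2.71 for Scn8a. Leaving out mice gave -1.82 to 3.28 for Scn8a and -2.23 to 0.28 for Scn2b. With unknown depth and 2 or 3 mice per group, changes in a mutant line smaller than the printed intervals were not detectable.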
